A study of Mus musculus with 6 samples.

Results

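The 34 genes described here encode lysosomal hydrolases, their activators and proteins of the lysosomal membrane, chosen by name for their place in the lysosome. All 34 were present in the table of 15388 genes from mouse hippocampus, and all 34 were among the 15343 genes tested. RNA was compared between 2 fractions of the same homogenate from 3 mice numbered 201, 207 and 208, which gave 1 Input and 1 Positive library each. Every mouse was Cx3cr1-cre/ERT2+; NuTRAP+ and received tamoxifen at about 3 months of age. Once tamoxifen has switched on Cre recombinase, cells that express it carry EGFP on a ribosomal protein from the NuTRAP reporter. Input is cleared tissue lysate before any pull-down, and Positive is the RNA on ribosomes caught by an antibody to GFP (translating ribosome affinity purification, TRAP). Because the Cx3cr1 promoter drives the Cre, brain border macrophages can be tagged as well as microglia. A pull-down from mice without Cre was not analysed here, so the level that beads collect without tagged ribosomes is not known.

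Lysosomes are acidic organelles in which hydrolases take apart glycans, lipids, proteins and nucleic acids delivered by endocytosis, phagocytosis and autophagy. Most soluble hydrolases receive mannose 6-phosphate tags in the Golgi and are carried to the organelle by receptors, small activator proteins present lipids to some of them, and heavily glycosylated membrane proteins line the limiting membrane. Nearly all cells have lysosomes, phagocytes such as microglia are rich in them, and inherited loss of single members causes storage disease that often affects the brain.

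Promoter letters are shown first for 4 members to place the 2 motifs searched in their sequence, and the 4 were picked because they hold a motif. CACGTG is the core bound by TFEB and TFE3, which control many lysosomal genes, and GAGGAAG is a purine-rich core of the kind bound by PU.1, a factor of the macrophage lineage. Laptm5 and Man2b1 were among the members most enriched in Positive, Lamp1 was enriched less, and Mcoln1 did not pass the test. These 4 do not stand for all holders of a motif. Gla, with both motifs, did not pass, and Naglu and Sgsh, with CACGTG, had log2 fold changes of 1.65 and 1.32. Each run is the 120 bases before the RefSeq start on the plus strand of GRCm38.p6, written 5′ to 3′, with capitals marking CACGTG in Lamp1 and Mcoln1 and the reverse complement of GAGGAAG in Laptm5 and Man2b1. The positions were chr4:130913196-130913315 for Laptm5, chr8:85083149-85083268 for Man2b1, chr8:13159041-13159160 for Lamp1 and chr8:3500399-3500518 for Mcoln1.
Laptm5: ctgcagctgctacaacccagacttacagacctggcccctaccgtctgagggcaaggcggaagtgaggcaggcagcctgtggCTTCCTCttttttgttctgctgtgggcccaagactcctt
Man2b1: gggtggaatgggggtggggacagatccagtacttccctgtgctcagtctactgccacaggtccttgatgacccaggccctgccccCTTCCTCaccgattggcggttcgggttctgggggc
Lamp1: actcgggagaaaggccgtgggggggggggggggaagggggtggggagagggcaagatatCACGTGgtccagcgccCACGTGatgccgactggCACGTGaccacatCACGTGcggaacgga
Mcoln1: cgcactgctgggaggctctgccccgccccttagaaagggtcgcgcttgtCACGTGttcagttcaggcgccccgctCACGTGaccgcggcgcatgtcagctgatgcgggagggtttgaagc

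In these runs Laptm5 and Man2b1 each held 1 GAGGAAG on the opposite strand, starting 39 and 35 bases before the start, and no CACGTG. Lamp1 held 4 copies of CACGTG, 61, 45, 28 and 15 bases before the start, and Mcoln1 held 2, 71 and 45 bases before it. The RefSeq starts need not match the gene starts deposited with the reads. The Laptm5 run, its motif included, lies inside the deposited span of that gene, which begins at 130913125. The Mcoln1 run crosses the deposited start of that gene, at 3500457. Over a window from 250 bases before to 50 bases after the start, RefSeq gave a promoter for 31 of the 34 members. Asah1, Npc1 and Plbd2 had none in the table used. CACGTG was present in 8 of 31 members, or 25.8% (95% exact binomial interval 11.9% to 44.6%), against 8.09% of 27025 genes in the whole promoter table and 11.4% of 11016 tested genes. The 8 genes were Cln3, Gaa, Gla, Glb1, Lamp1, Mcoln1, Naglu and Sgsh. GAGGAAG, searched on both strands, was present in 7 of 31 members, or 22.6% (9.59% to 41.1%), against 15.4% of all genes with a promoter and 16.0% of tested genes, and these 7 were Cln3, Gla, Gm2a, Gusb, Laptm5, Lipa and Man2b1. Of the 23 members with a promoter that were higher in Positive, 5 held CACGTG and 6 held GAGGAAG. Of the other 8 members, 3 held CACGTG and 1 held GAGGAAG. Cd68, Grn and Hexa, which like Laptm5 and Man2b1 were over 5-fold higher, held neither motif. Of 93 other lysosomal and related genes with a promoter, 24.7% held CACGTG and 12.9% held GAGGAAG. A match describes letters in this window and was not tested as a site of binding.

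Most lysosomal members had higher levels in Positive than in Input, by very different amounts. Of the 34 genes, 26 were higher in Positive, 1 was lower and 7 did not pass the edgeR quasi-likelihood test at an adjusted p-value of 0.05. Among all genes tested, 23.9% were higher, 22.0% were lower and 46.0% differed either way. Of these calls over all genes 52.1% were in the higher direction, and 41.6% with total count scaling, under which the members again gave 26 higher and 1 lower. Levels are given as scaled reads, the reads of a gene divided by a size factor that corrects for library depth. The median log2 fold change, Positive over Input, was 0.74 for the members and -0.01 for all genes tested. It was 0.70, 0.90 and 0.59 in animals 201, 207 and 208 when the median was taken over the log2 ratios of each animal, 0.73 ± 0.16 (SD, n = 3). Enrichment over 5-fold was found for 5 members, Laptm5, Cd68, Man2b1, Grn and Hexa, where 3.75% of all genes exceeded it. Another 7 called members were over 2-fold and 14 were below 2-fold. Both fractions of a mouse came from the same homogenate, so these ratios compare fractions and not numbers of cells. Which cells the RNA came from, and how ribosome-bound RNA differs from total RNA, was not tested.

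Replicates were close enough to separate the fractions for most members. Every Positive library was above every Input library for 26 members, the same 26 that were called higher, against 28.9% of all genes. Every Positive library was below every Input library for 2 members, Ids and Smpd1, against 27.6% of all genes, and Smpd1 did not pass the test. The coefficient of variation over 3 animals ranged from 1.61% to 17.0% in Input (median 6.04%) and from 0.860% to 24.9% in Positive (median 13.3%). The Positive library of animal 208 stood apart. Of the 26 members called higher, 25 had their lowest Positive level in that animal. Without that library 26 members were again called higher, with a median of 0.84.

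**Figure D1:**
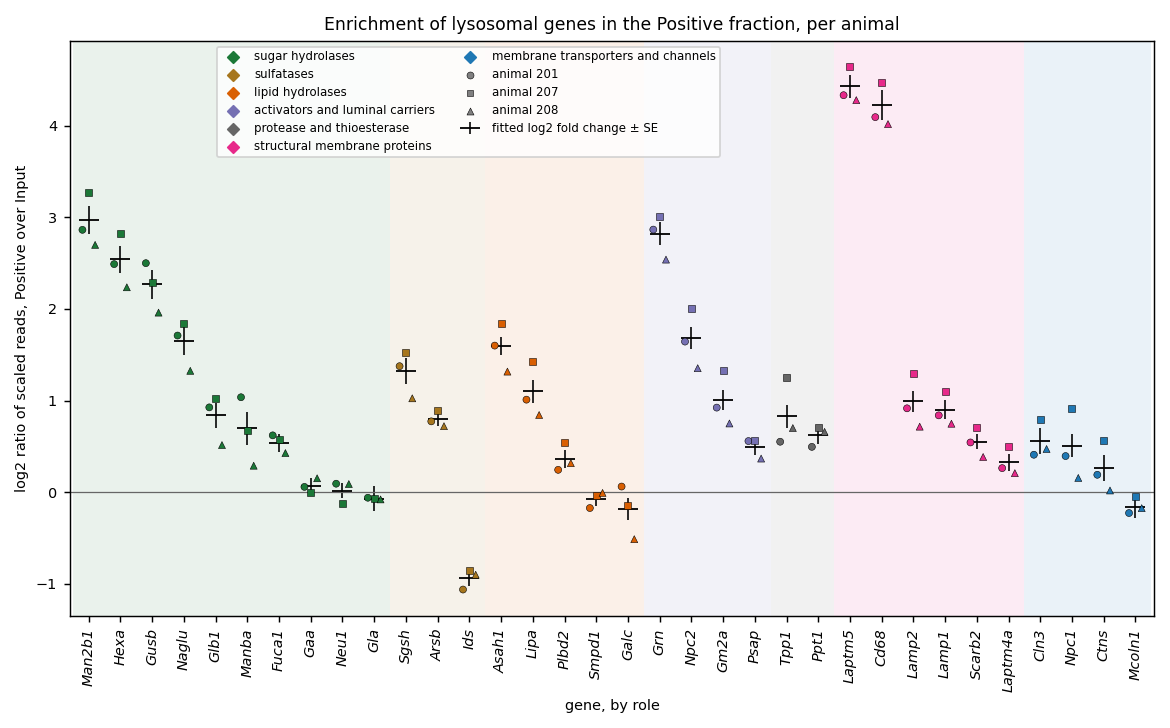
Log2 ratio of scaled reads, Positive over Input, for each of the 34 genes (x axis, by role), with circles, squares and triangles for animals 201, 207 and 208 and crosses for the fitted log2 fold change ± SE. Laptm5 and Cd68 lie above 4, most members lie between 0 and 3, and Ids is the gene that lies near -1 in all 3 animals.

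Markers of the tagged cells and of some other cells differed between the fractions, while most neuronal and mural markers did not pass the test. Among all genes tested, 23.9% were higher and 22.0% lower. Cx3cr1, a chemokine receptor of microglia whose promoter drives the Cre, had 311, 324 and 277 scaled reads in the Input libraries and 8126, 9875 and 6947 in the Positive libraries of animals 201, 207 and 208. All 14 microglial markers were higher, with a median log2 fold change of 4.70 and summed levels of 6407 to 6812 scaled reads in Input and 127700 to 188210 in Positive. All 7 border macrophage markers were higher (median 4.15, sums 198 to 255 and 2645 to 5789), and so were all 10 endothelial markers (median 1.88, sums 1912 to 2328 and 4948 to 10091). All 10 oligodendrocyte markers were lower (median -2.34, sums 56410 to 64160 and 12675 to 16813). Of 10 astrocyte markers 1 was higher and 4 were lower (median -0.33, sums 64887 to 69025 and 60328 to 72569), of 10 neuronal markers 2 were higher and 1 lower (median 0.06, sums 111340 to 124800 and 114030 to 132580), and of 10 mural markers 1 was higher and 1 lower (median -0.28, sums 3181 to 3282 and 2010 to 3985). Of 6 monocyte and neutrophil markers only Ly6c2 was in the table, at 2.10 to 12.2 scaled reads in Input and 20.8 to 24.7 in Positive, and no defining marker of the other lists was at 0. Ly6c2 also met the filter in Positive alone. The part of these cell types in the values of the lysosomal genes was not tested. Laptm5 and Cd68 were the 2 members with a log2 fold change at or above that of the lowest microglial marker, Sall1, at 3.12, and 0 members reached the marker median.

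The 6 structural membrane proteins were all higher in Positive, with a median log2 fold change of 0.95. Laptm5 (chromosome 4, 130913125 to 130936141, plus strand, mm10) encodes a lysosomal transmembrane protein of blood-lineage cells. It had 596, 562 and 536 scaled reads in the Input of animals 201, 207 and 208, and 12027, 14047 and 10419 in their Positive libraries. The lowest Positive library was far above the highest Input library. The log2 fold change was 4.43 ± 0.12 (SE, n = 3 per fraction), or 21.5-fold, with an edgeR adjusted p-value of 1.94e-10. Cd68 (chromosome 11, 69664213 to 69666153, minus strand), the macrophage relative of the LAMP proteins, had 94.3, 87.6 and 78.3 scaled reads in Input and 1625, 1968 and 1282 in Positive. Again the fractions did not overlap, and the log2 fold change was 4.23 ± 0.16, or 18.7-fold (edgeR adjusted p-value 5.16e-10).

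The other 4 structural proteins are present in most cells, and their differences were smaller. Lamp2, needed for chaperone-mediated autophagy and for fusion with autophagosomes, had 1039, 1008 and 1033 scaled reads in Input and 1961, 2474 and 1697 in Positive, a log2 fold change of 0.99 ± 0.12 (edgeR adjusted p-value 1.76e-05). Lamp1, the most widely used lysosome marker, had 3980, 3684 and 3593 scaled reads in Input and 7119, 7889 and 6033 in Positive, a log2 fold change of 0.90 ± 0.10 (9.93e-06). Both genes thus had all 3 Positive libraries above all 3 Input libraries. Scarb2, or LIMP-2, is a membrane protein that also carries cargo to the lysosome, and it had 2029, 1959 and 2054 scaled reads in Input and 2957, 3203 and 2682 in Positive, a log2 fold change of 0.55 ± 0.08. Laptm4a, the widely expressed relative of Laptm5, had 2950, 2553 and 2582 in Input and 3540, 3619 and 2982 in Positive. Its lowest Positive value lay close to its highest Input value, and the log2 fold change of 0.33 ± 0.09 had an edgeR adjusted p-value of 0.0121. Its call was lost without the Input library of animal 207 (0.29, adjusted p-value 0.0623) or 208 (0.30, 0.0616), without the Positive library of animal 207 (0.28, 0.0504), and with limma (0.31, 0.0527).

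All 4 activators and luminal carriers were higher in Positive, with a median log2 fold change of 1.35. Grn (chromosome 11, 102430315 to 102437048, plus strand) encodes progranulin, which is cut into granulins in the lysosome and whose loss causes frontotemporal dementia or a neuronal ceroid lipofuscinosis. It had 1052, 1148 and 1058 scaled reads in Input and 7668, 9244 and 6149 in Positive. The fractions were separated in every animal, and the log2 fold change was 2.82 ± 0.13, or 7.07-fold (edgeR adjusted p-value 2.39e-09). Npc2, the luminal protein that hands cholesterol to Npc1, had 1147, 1106 and 1155 scaled reads in Input and 3584, 4424 and 2953 in Positive, a log2 fold change of 1.69 ± 0.12. Gm2a, the activator that presents GM2 ganglioside to hexosaminidase, had 911, 780 and 871 scaled reads in Input and 1727, 1952 and 1466 in Positive, a log2 fold change of 1.01 ± 0.11. Psap, the precursor of the saposins, differed least of the 4. It had 28961, 29324 and 30060 scaled reads in Input and 42638, 43458 and 38774 in Positive, a log2 fold change of 0.50 ± 0.09 (edgeR adjusted p-value 0.000726).

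Among 10 hydrolases that cleave sugar bonds, 7 were higher in Positive and 3 did not pass the test. The largest difference was in Man2b1 (chromosome 8, 85083270 to 85098282, plus strand), the lysosomal alpha-mannosidase. It had 924, 820 and 763 scaled reads in Input and 6730, 7934 and 4956 in Positive, a log2 fold change of 2.97 ± 0.15, or 7.82-fold (edgeR adjusted p-value 5.49e-09). Hexa (chromosome 9, 59539540 to 59565109, plus strand), the alpha subunit of beta-hexosaminidase that is lost in Tay-Sachs disease, had 963, 876 and 814 scaled reads in Input and 5410, 6183 and 3839 in Positive, a log2 fold change of 2.54 ± 0.15, or 5.82-fold. For both genes even the lowest Positive library, that of animal 208, was well above the Input range. Gusb, or beta-glucuronidase, had 221, 276 and 226 scaled reads in Input and 1256, 1355 and 882 in Positive, 4.82-fold higher. Naglu, which removes N-acetylglucosamine from heparan sulfate, had a log2 fold change of 1.65 with 154 to 171 scaled reads in Input and 386 to 587 in Positive. Smaller differences were found for Glb1, the beta-galactosidase that acts on GM1 ganglioside, at 0.84, for Manba, the beta-mannosidase, at 0.70 ± 0.18 (edgeR adjusted p-value 0.00719), and for Fuca1, the alpha-fucosidase, at 0.54. Glb1 shares 165 exonic bases, 5.49% of its exons, with Tmppe on the same strand, so its reads are uncertain to that extent.

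Gaa, Neu1 and Gla did not pass the test. Gaa, the acid alpha-glucosidase that degrades glycogen and is lost in Pompe disease, had 5191 to 5812 scaled reads in Input and 5302 to 6050 in Positive, a log2 fold change of 0.07 with a 95% confidence interval of -0.11 to 0.25. Neu1, the lysosomal sialidase, had 930 to 1032 in Input and 946 to 1062 in Positive (0.02, interval -0.16 to 0.20). Gla, the alpha-galactosidase lost in Fabry disease, had 180 to 192 in Input and 171 to 184 in Positive (-0.07, interval -0.37 to 0.23). The Input and Positive ranges overlapped for each of these genes, and the intervals leave out a difference as large as those of Man2b1 or Hexa.

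The 3 sulfatases did not move together. Ids (chromosome X, 70343069 to 70365084, minus strand), the iduronate 2-sulfatase that starts the breakdown of heparan and dermatan sulfate and is lost in Hunter syndrome, was the only member called lower in Positive. It had 6226, 6180 and 6669 scaled reads in Input and 2982, 3408 and 3573 in Positive. The highest Positive library was below the lowest Input library, and the mean level was 52.2% of Input, a log2 fold change of -0.94 ± 0.09 (edgeR adjusted p-value 1.8e-06). Sgsh, which removes sulfate from heparan sulfate, was higher by 1.32 on the log2 scale, with 150 to 166 scaled reads in Input and 338 to 454 in Positive. Arsb, which acts on dermatan and chondroitin sulfate, was higher by 0.79, with 1667 to 1820 in Input and 2849 to 3127 in Positive.

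Of 5 lipid hydrolases, 3 were higher in Positive. Asah1, the acid ceramidase, had 628, 608 and 669 scaled reads in Input and 1907, 2187 and 1668 in Positive, a log2 fold change of 1.60. Lipa, the acid lipase that splits cholesteryl esters and triglycerides, had a log2 fold change of 1.10, and Plbd2, a protein related to phospholipase B, had 0.36 (edgeR adjusted p-value 0.00834). The call of Plbd2 was lost without the Input library of animal 207 (0.29, adjusted p-value 0.0510). Smpd1, the acid sphingomyelinase, had 1347 to 1496 scaled reads in Input and 1317 to 1340 in Positive, a log2 fold change of -0.08 with an interval of -0.24 to 0.09. Galc, which breaks down galactosylceramide of myelin and is lost in Krabbe disease, had 566 to 610 in Input and 427 to 591 in Positive (-0.19, interval -0.44 to 0.07). Neither of these passed the test.

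Tpp1, a tripeptidyl peptidase, and Ppt1, which removes palmitate from proteins, are both lost in forms of neuronal ceroid lipofuscinosis. Both were higher in Positive, with log2 fold changes of 0.83 and 0.62. Tpp1 had 615 to 856 scaled reads in Input and 1142 to 1460 in Positive, and Ppt1 had 1101 to 1306 and 1738 to 2125.

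Of the 4 transporters and channels of the membrane, 2 were higher in Positive and 2 did not pass the test. Npc1, the membrane protein that exports cholesterol, had 969, 840 and 945 scaled reads in Input and 1275, 1579 and 1053 in Positive, a log2 fold change of 0.51 ± 0.13 (edgeR adjusted p-value 0.00571). Cln3, a membrane protein lost in juvenile neuronal ceroid lipofuscinosis, had a log2 fold change of 0.56 (0.00670). Both were called higher. Ctns, the cystine exporter, had 196 to 240 scaled reads in Input and 230 to 290 in Positive, a log2 fold change of 0.26 with an interval of -0.05 to 0.57. Mcoln1, the calcium channel TRPML1, had 880 to 1192 in Input and 817 to 1018 in Positive (-0.16, interval -0.42 to 0.11). These latter genes did not pass the test, and their fractions overlapped.

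Levels of different genes were compared as scaled reads per kilobase of exon. Psap had the highest level of the 34 in both fractions, 10732 reads per kilobase in Input and 15169 in Positive, above 99.9% of all genes in each. Laptm5 ranked 18 of 34 in Input, at 149 reads per kilobase, and 2 in Positive, at 3211. Cd68 went from rank 25, at 69.0, to rank 7, at 1293, whereas Ids went from rank 4, at 1247, to rank 11, at 651. The members sat at a median percentile of 65.6 of all genes in Input and 81.5 in Positive. Above the 90th percentile there were 5 members in Input and 12 in Positive. The lowest level was that of Manba in Input (29.0) and of Galc in Positive (35.0). Galc had the longest exon length of the 34, 14879 bases. Before division by length it had a mean of 520 scaled reads in Positive, and the lowest mean was that of Gla, 176.

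**Figure D2:**
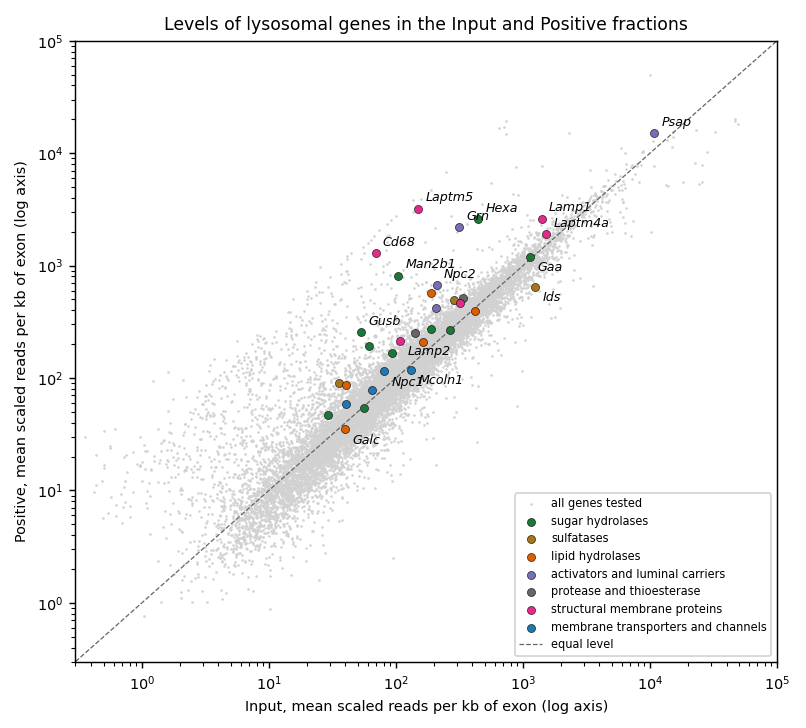
Mean scaled reads per kilobase of exon in Input (x axis, log) and Positive (y axis, log), n = 3 libraries each, with the 34 genes in colours by role and all genes tested in grey; genes at 0 in a fraction are not drawn. Laptm5, Cd68, Man2b1, Grn and Hexa lie far above the dashed line of equal level, Psap lies at the upper right and Ids lies below the line.

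Related genes were then compared within animals, as the difference of their log2 ratios (mean ± SD, n = 3). In all 23 pairs were compared, and since 3 animals cannot give an exact two-sided sign permutation p-value below 0.25, no p-value is given. The LAMP genes differed little, with Lamp2 above Lamp1 by 0.08 ± 0.11 and in 2 of 3 animals. The LAPTM family spread most widely. Laptm5 exceeded Laptm4a by 4.09 ± 0.04, and Laptm4a exceeded Laptm4b, a relative outside the 34 that was lower in Positive (log2 fold change -0.57), by 0.89 ± 0.33. Per kilobase, Laptm5 was at 0.0946 to 0.103 of the level of Laptm4a in Input and at 1.59 to 1.82 of it in Positive. The order of this pair was therefore turned round between the fractions in every animal.

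Genes for proteins that work together also differed in their RNA ratios. Npc2 exceeded its membrane partner Npc1 by 1.18 ± 0.08. Hexa exceeded the activator Gm2a, which serves it in GM2 breakdown, by 1.52 ± 0.04, and both were higher in Positive. Ctsa, the protective protein that forms a complex with Glb1 and Neu1, had a log2 fold change of 1.88 and exceeded Glb1 by 1.05 ± 0.21 and Neu1 by 1.85 ± 0.36. Among sphingolipid enzymes, Asah1 exceeded Smpd1 by 1.66 ± 0.30, and the saposin precursor Psap exceeded Galc by 0.70 ± 0.19. Arsb and Sgsh exceeded Ids by 1.73 ± 0.11 and 2.25 ± 0.28, and Man2b1 exceeded Manba by 2.28 ± 0.40. Each of these differences had 1 direction in all 3 animals.

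**Figure D3:**
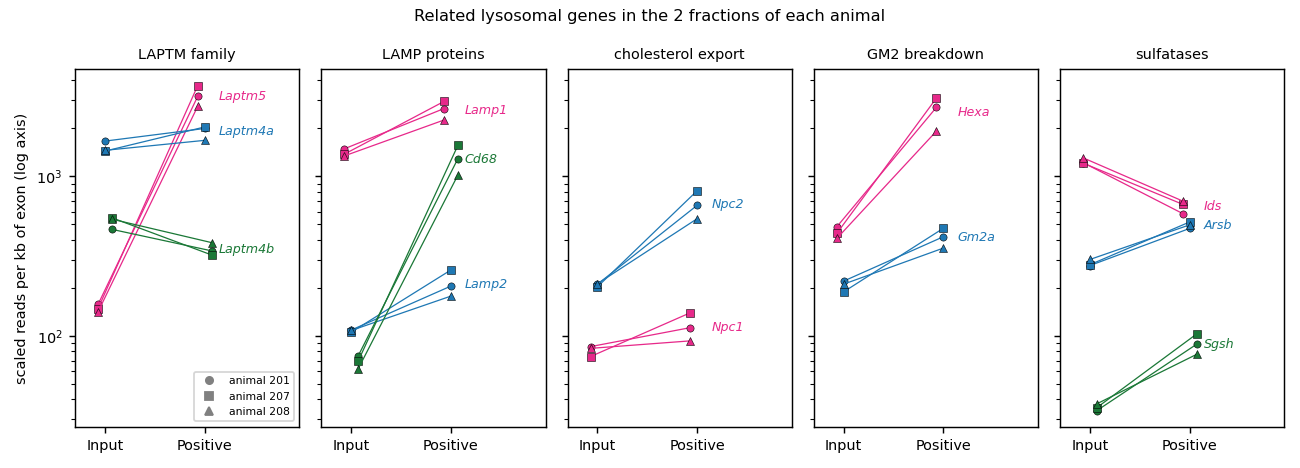
Scaled reads per kilobase of exon (log axis) in Input and Positive for related genes, with lines joining the fractions of each animal. Laptm5 rises past Laptm4a in all 3 animals while Laptm4b and Ids fall, and Lamp1 and Lamp2 rise by like amounts.

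Further lysosomal and related genes were described with 4 lists. Called higher were 58.3% of other hydrolases, 26.3% of proton pump subunits, 35.1% of other membrane proteins and 48.6% of sorting and control genes. Among all genes tested, 23.9% were higher and 22.0% lower. Of 36 other hydrolases tested, 21 were higher and 2 lower, with a median log2 fold change of 0.43. Among the highest were Pld4, an exonuclease of endolysosomes, at 4.46, and Prcp, a carboxypeptidase, at 2.40. The lowest were the sialidases Neu4 at -1.39 and Neu3 at -0.58, of which Neu3 passed only with limma (-0.59, adjusted p-value 0.0223), and the sulfatase Arsg at -0.55. The study used Neu4 as an oligodendrocyte marker in its quantitative PCR. Arsa, the arylsulfatase A that acts on sulfatide of myelin, had 0.38 and passed. Of 37 other membrane proteins tested, 13 were higher and 4 lower, with a median of 0.04, against 12 and 7 with total count scaling. The highest of these were Slc11a1, a metal ion transporter of phagosomes, at 4.07, Unc93b1, which brings Toll-like receptors to endosomes, at 4.05, and Slc15a3, a peptide and histidine transporter, at 3.96. The lowest were the haem transporter Slc48a1 at -0.72, Laptm4b at -0.57 and Tmem192 at -0.46, the last not called without the Input library of animal 201 (-0.43, adjusted p-value 0.0523) or the Positive library of animal 207 (-0.40, 0.0662).

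The proton pump genes differed little. Of 19 subunits tested, 5 were higher and 1 lower, with a median log2 fold change of 0.13, against 3 and 3 with total count scaling. The 26.3% called higher was near the 23.9% of all genes tested. Tcirg1, the a3 subunit, had the largest at 1.21, then Atp6v0a2 at 0.44 and Atp6v1g1 at 0.40. The lowest was Atp6v0e2 at -0.32, the gene called lower, and Atp6v0c at -0.17 and Atp6v0a1 at -0.15 did not pass. Without the Input library of animal 207 or of animal 208, 3 subunits were called higher. Atp6v0e2 was not called without the Input library of animal 208 (-0.30, adjusted p-value 0.0654) or the Positive library of animal 201 (-0.25, 0.0570) or 207 (-0.28, 0.0537), and Atp6v0c and Atp6v0a1 were called lower without the Positive library of animal 208 (-0.24, 0.0159 and -0.18, 0.0434). Of 35 sorting and control genes tested, 17 were higher and 6 lower, with a median of 0.26. Without the Input library of animal 208 these counts were 11 and 2, and without the Positive library of animal 201 the second was 3. Nagpa, which uncovers the mannose 6-phosphate tag, had 1.77, and Gnptab, a subunit of the enzyme that first attaches it, had -0.35. Nagpa exceeded Gnptab by 2.12 ± 0.27 within animals. Of the receptors for the tag, M6pr was higher at 0.58 and Igf2r lower at -0.39, a call lost without the Input library of animal 201 (-0.24, adjusted p-value 0.117) or 208 (-0.39, 0.0620), without the Positive library of animal 201 (-0.36, 0.0571), and with limma (-0.39, 0.0651). The transcription factors Tfe3 and Tfeb had 1.06 and 0.87 and were, with Nagpa, the highest of this list. The lowest was Mtor, a protein kinase, at -0.88 with 54.4% of its Input level. These genes were named as extremes of the list, and a link between them was not tested. Acp5, Atp6v0d2, Atp6v1c2, Lamp3, Mcoln2, Mcoln3 and Tfec were on these lists but absent from the deposited table, so they could not be tested.

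**Figure D4:**
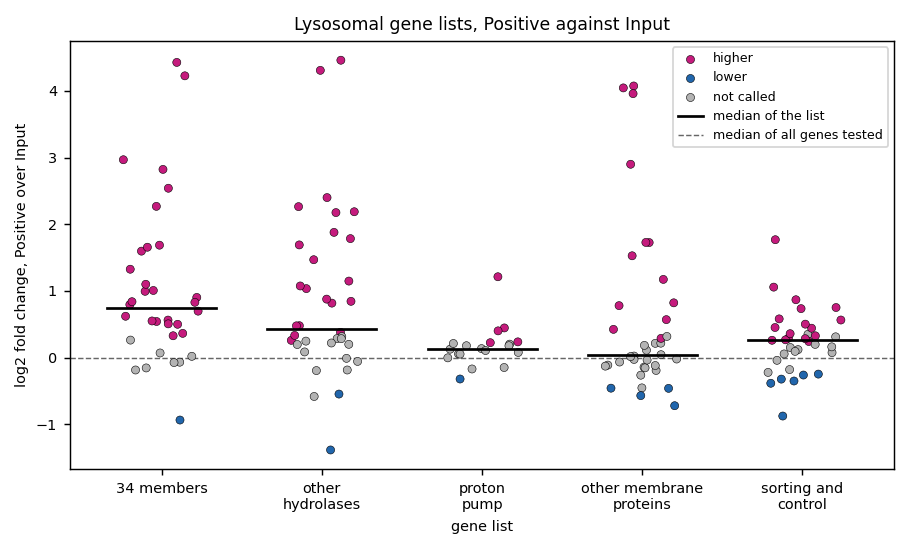
Log2 fold change, Positive over Input, of each gene (points) in the 34-gene set and 4 further lists, with black bars for list medians and the dashed line for the median of all genes. The medians are 0.74, 0.43, 0.13, 0.04 and 0.26 from left to right.

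The 34 genes together took 0.449%, 0.438% and 0.443% of the reads of the Input libraries of animals 201, 207 and 208. They took 0.774%, 0.826% and 0.670% of the Positive libraries. The means were 0.444% ± 0.006 and 0.757% ± 0.080 (SD, n = 3), and the fractions did not overlap. Within these reads, not corrected for gene length, Psap took 41.3% to 43.5% in Input and 31.8% to 35.1% in Positive. The part of Laptm5 was 0.775% to 0.851% in Input and 9.44% to 10.3% in Positive, and that of Ids was 8.89% to 9.64% and 2.37% to 3.24%.

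Some members are also on marker lists. The microglial list that the study took from cell sorting held 4 of the 34, Cd68, Grn, Laptm5 and Man2b1, and its list from ribosomal tagging held 2, Cd68 and Laptm5. Its astrocyte, oligodendrocyte and neuron lists held 0. The ribosomal-tagging list was drawn in part from brain libraries of the study itself, so it is not independent of this mouse line. Without Laptm5 and Cd68, 24 of 32 members were higher and the median log2 fold change was 0.66.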

How the data were processed

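RNA was measured in hippocampal Input and Positive (TRAP) fractions of 3 animals, 6 libraries of 14879734 to 17757918 reads, grouped by the fraction label. Libraries were directional and read as pairs. The authors trimmed reads, aligned them to mm10 in Strand NGS with strand, and deposited expected counts per gene, which are estimated and need not be whole (17.4% to 23.1% were). The deposited table held genes with at least 20 reads in every library of 1 fraction. The deposited normalized columns are log2 values relative to the Input median. Of whole values under 60 reads, 64.7% to 69.3% were even, and whether both mates were counted was not settled. Errors from read numbers cover counting only. The columns that did not map to a sample numbered 0.

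Expected counts were rounded and tested with edgeR 4.0.16 in R 4.3.3 (quasi-likelihood test, RLE scaling, Benjamini-Hochberg over 15343 genes with over 20 scaled reads in every library of 1 fraction, adjusted p-value under 0.05). Scaled reads are counts divided by the RLE size factor. The fit was unpaired. Replicates were separate animals, and each animal gave both fractions, so the animal number pairs the libraries. The correlation of same-animal deviations from the group means was 0.19, 0.06 and 0.12. Ratios per animal used a pseudocount of 1. Exon lengths came from GENCODE vM21 and promoters from RefSeq (GRCm38.p6, the build mm10). The method was tested on simulated data. Alternatives were TMM and total count scaling, DESeq2 1.42.0, other filters, counts divided by 2, an animal block, each library left out, and limma 3.58.1 on the deposited log2 values, the last chosen after seeing the data.

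The members and lists were chosen with earlier results of these data known. All members were named, and of each further list the 3 highest and 3 lowest log2 fold changes, partners of members (among them Ctsa, Arsa and Laptm4b) and Cx3cr1. A few of these are not reported here. M6pr, Idua, Hgsnat, Pld3, Dnase2a, Rnaset2a and Rnaset2b were named after their values were seen. Protein sequences were not analysed here.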

Additional observations from a re-analysis of the deposited data

How the results depend on the processing

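Of the 34 members, 30 kept their direction and their side of the threshold in all 14 alternatives. The count of members higher was 26, except for 25 with limma and 24 to 26 with 1 library left out, and 1 member was lower throughout. The median log2 fold change of the members was 0.65 to 0.84 with 1 library left out and 0.67 with total count scaling, which moved the median of all genes from -0.01 to -0.09. With the animal as a replicate block, 26 members were higher and 1 lower with a median of 0.74, and the block changed no call of a member. Calls of Laptm4a and Plbd2 were lost as given beside their values. Neu1, which did not pass, turned to -0.0588 with total count scaling, -0.0091 with a filter at 100 scaled reads and, with 1 library left out, ranged from -0.0264 (without the Positive library of animal 208) to 0.057. Gaa turned to -0.0077 with total count scaling. The median of the other membrane proteins turned to -0.0348 with total count scaling, and 7 of them were then lower. Of the proton pump, 3 subunits were higher with total count scaling and with limma, 3 were lower with total count scaling, and leaving out 1 library gave 3 to 5 higher and 0 to 3 lower, with 0 without the Input library of animal 208 or the Positive library of animal 201 or 207, and 3 without the Positive library of animal 208. Of the sorting and control genes, leaving out 1 library gave 11 to 18 higher and 2 to 5 lower, the lowest counts without the Input library of animal 208, and limma gave 3 lower. Calls of Atp6v0e2 and Tmem192 were each lost in some of these alternatives. The cause of these changes was not tested. Each value rests on 3 animals, and members under 200 scaled reads in Input, such as Cd68 and Gla, carry the larger counting error.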

Other observations

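Several genes that act on heparan sulfate were chosen after their values were seen, and their log2 fold changes differed in sign and size. Ids, which removes the first sulfate, was lower in Positive (log2 fold change -0.94). Idua, the iduronidase that follows it, had 0.25 with a 95% confidence interval of -0.14 to 0.63 and did not pass the edgeR test, and without the Positive library of animal 208 it was called higher (0.43, adjusted p-value 0.0273). Sgsh, Hgsnat and Naglu, which act on the glucosamine end, had 1.32, 0.33 and 1.65, and the call of Hgsnat was lost without the Input library of animal 208 (0.26, adjusted p-value 0.0642). Gusb, which removes glucuronic acid, had 2.27. Naglu and Sgsh differed by 0.32 ± 0.02 (SD, n = 3) in their log2 ratios within animals.

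Among endolysosomal nucleases, also chosen after their values were seen, the paralogs Pld4 and Pld3 differed. The ribonuclease genes Rnaset2a and Rnaset2b were both called higher, 4.55-fold and 3.23-fold. The mean of Pld4 over 3 animals was 141 ± 25.2 scaled reads (SD) in Input and 3093 ± 608 in Positive, 22.0-fold higher. That of Dnase2a was 94.4 ± 9.22 against 426 ± 92.8, 4.51-fold higher. Pld3, the paralog of Pld4, stood at 6495 ± 740 in Input against 7440 ± 683 in Positive, a log2 fold change of 0.20 with an interval of -0.02 to 0.41. It did not pass the edgeR test, and without the Input library of animal 201 it was called higher (0.29, adjusted p-value 0.0418).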
